A study of Mus musculus with 18 samples.

Results

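Gm10800 and 5 predicted genes that carry the same repeat sequence, Gm10801, Gm10718, Gm10719, Gm10721 and Gm26870, were followed in the heart of irradiated mice. Gm10800 was chosen by its counts, since it had the smallest adjusted P of all genes in both comparisons of irradiated with control mice, and the other 5 were taken because their annotated sequence overlaps with it. Of these 6 genes, 5 had a row among the 30072 rows of the tables used here, and Gm26870 was not analysed here beyond its sequence. RNA came from the heart (septum in the labels, ventricular tissue in the methods of the study) of CD-1 mice, an outbred strain, of both sexes and at least 8 weeks of age. The groups were 6 control mice that had anesthesia without the dose (untreated in the labels, and sham controls with CT imaging in the methods), 6 mice taken 2 weeks after a single dose of 25 Gy under anesthesia (2wk) and 6 mice taken 6 weeks after the same dose (6wk). No mouse carried a transgene or other allele according to the labels, the sex of single mice was not given in the sources used here, and each library was treated as 1 mouse. The labels give a DNase step before library preparation, but RNA of these rows cannot be told apart here from genomic DNA of the same repeats that may have been left, and that was not tested.

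The pericentromeric regions of mouse chromosomes consist largely of the major (gamma) satellite, a short AT-rich unit repeated head to tail over very long arrays. These arrays are packed in constitutive heterochromatin, where histone methyltransferases, heterochromatin protein 1 and DNA methylation keep transcription low. Genome assemblies hold only short stretches of such arrays, mostly at chromosome ends and in scattered inserts, and automatic gene annotation has placed predicted genes with open reading frames inside some of them. No function is known for the predicted proteins, so a count on such a row is a count of repeat-like sequence.

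The genes lie at 2 places in GRCm38. Gm10800 (chr2:98666547-98667301, minus strand, ENSMUSG00000075014) and Gm10801 (chr2:98662237-98664083, plus strand, ENSMUSG00000075015) are neighbours on chromosome 2. Gm10721 (chr9:3013140-3014344, ENSMUSG00000096519), Gm10719 (chr9:3017408-3021593, ENSMUSG00000095547) and Gm10718 (chr9:3023547-3025218, ENSMUSG00000095186) follow each other on the plus strand at the assembled start of chromosome 9. The non-coding RNA Gm26870 (chr9:3000282-3038313, ENSMUSG00000097312) runs across all 3 on the minus strand. The 5 protein-coding models hold transcripts of 504 to 681 bases with no annotated UTR. Of the 4 gaps between the exons of Gm10800, 3 were under 30 bases and the longest was 65 bases.

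Below are the 234 bases at chr2:98666807-98667040 of Gm10800, which are 1 repeat unit, and the exonic stretch of each other gene that aligned best to them. They are shown because the genes share long parts of this sequence, although none of the other stretches equals the Gm10800 unit. All are written 5′ to 3′ in the direction of Gm10800, so that the stretch of Gm26870 is the reverse complement of its transcript, and capitals mark the longest run that is identical to the Gm10800 unit. The stretches lie at chr2:98662315-98662500 (Gm10801), chr9:3023617-3023790 (Gm10718), chr9:3020866-3021099 (Gm10719), chr9:3013210-3013383 (Gm10721) and chr9:3014085-3014318 (Gm26870), on the strand of each gene.
Gm10800: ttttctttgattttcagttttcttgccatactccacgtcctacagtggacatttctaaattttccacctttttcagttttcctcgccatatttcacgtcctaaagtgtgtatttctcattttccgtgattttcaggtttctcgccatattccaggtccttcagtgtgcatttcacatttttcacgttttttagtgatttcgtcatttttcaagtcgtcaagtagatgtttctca
Gm10801: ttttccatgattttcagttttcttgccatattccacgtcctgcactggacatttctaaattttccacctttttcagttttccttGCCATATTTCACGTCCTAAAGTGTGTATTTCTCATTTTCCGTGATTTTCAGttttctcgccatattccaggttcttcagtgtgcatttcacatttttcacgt
Gm10718: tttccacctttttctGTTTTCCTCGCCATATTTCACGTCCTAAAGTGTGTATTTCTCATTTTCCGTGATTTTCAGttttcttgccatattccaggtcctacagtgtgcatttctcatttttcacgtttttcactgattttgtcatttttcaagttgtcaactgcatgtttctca
Gm10719: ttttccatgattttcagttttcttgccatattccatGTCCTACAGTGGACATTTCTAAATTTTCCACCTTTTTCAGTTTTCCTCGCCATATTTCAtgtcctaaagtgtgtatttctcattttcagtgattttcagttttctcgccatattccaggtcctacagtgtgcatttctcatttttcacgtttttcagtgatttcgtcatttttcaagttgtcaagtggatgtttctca
Gm10721: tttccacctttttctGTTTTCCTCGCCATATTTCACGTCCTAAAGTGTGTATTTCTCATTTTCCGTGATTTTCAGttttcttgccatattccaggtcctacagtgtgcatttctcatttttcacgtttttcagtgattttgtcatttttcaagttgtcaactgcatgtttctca
Gm26870: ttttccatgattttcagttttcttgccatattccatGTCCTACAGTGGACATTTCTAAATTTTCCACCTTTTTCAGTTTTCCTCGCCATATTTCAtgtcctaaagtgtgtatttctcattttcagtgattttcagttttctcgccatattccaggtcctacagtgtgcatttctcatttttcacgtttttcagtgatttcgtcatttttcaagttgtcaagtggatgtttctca

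Over their aligned bases, the stretches were 95.7% (Gm10801), 93.1% (Gm10718), 94.9% (Gm10719), 93.7% (Gm10721) and 94.9% (Gm26870) identical to the unit of Gm10800. The stretch of Gm26870 was identical to that of Gm10719 at all 234 bases, although they were read from different places on chromosome 9. Exons shorter than a set length were left out of a comparison of each exon with itself, and 12 exons remained. How these were spread over the 6 genes and their transcripts is not given here, so a period is not shown for each gene. Within these 12 exons, 93.9% of bases were identical at an offset of 234 bases, over 2002 positions, against a median of 30.6% over all offsets. Smaller maxima stood at 58, 116 and 176 bases, with 58.2%, 53.8% and 59.2% identical bases. A unit of this length with such subrepeats is known for the major satellite. A satellite consensus was not used here, so the genes were compared only with each other. GC content was 34.3% to 36.0%.

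**Figure D1:**
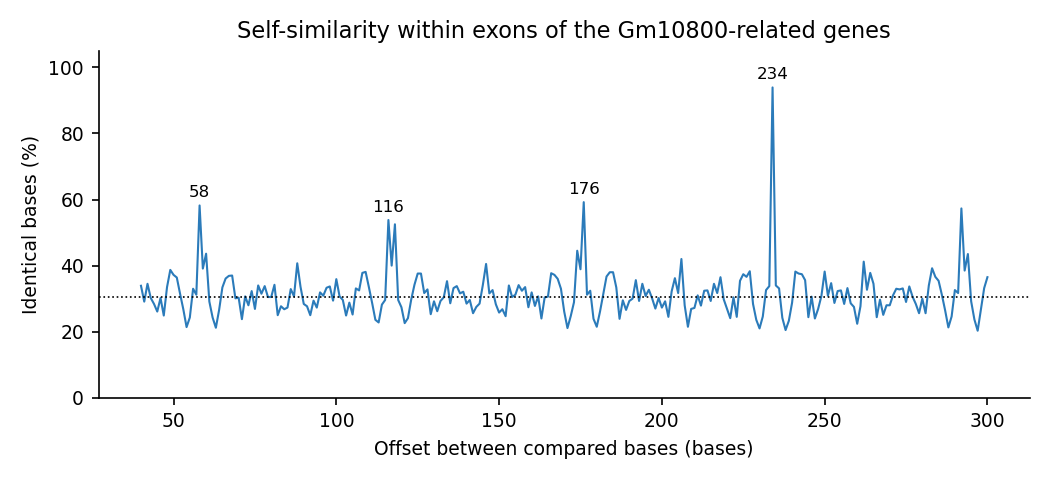
Percent of identical bases (y axis) between positions of the same exon that lie a given number of bases apart (x axis), with a dotted line at the median of 30.6%. Exons of the Gm10800-related genes shorter than a set length were left out, and 12 exons entered. The main maximum, 93.9%, is at 234 bases, and smaller ones are at 58, 116 and 176 bases.

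How much of each gene could be told from the rest of the annotation was measured with words of 31 bases on both strands. Of the 55536 annotated genes, 13 held a word of these genes, among them the 6 genes themselves. Gm10800 had 543 words, of which 58.0% occurred in no other gene, and Gm10801 had 63.8% such words. On chromosome 9 the unique share was 10.7% in Gm10721, 15.2% in Gm10718 and 22.6% in Gm10719, and it was 24.8% in Gm26870. Gm10800 shared an exact stretch of 86 bases with Gm10801, of 92 bases with Gm10719 and of 96 bases with Gm10721, whereas Gm10719 and Gm10721 shared 240 bases. The estimated counts can show where reads were divided between rows, since a divided read can leave a fraction. Of 71 values above 0 on single relatives of Gm10800 (the other rows with shared words) in irradiated mice, 50 lay more than 0.01 from a whole number, so values of single rows on chromosome 9 are uncertain as to the copy they come from. Gm10800 lay at most 0.07 from a whole number in irradiated mice and at most 0.201 in controls, and Gm10800 and its relatives together were whole in 18 of 18 mice. Little was thus divided between Gm10800 and its relatives, although a whole value does not show which of the copies a read came from. Copies of the sequence outside annotated genes were not counted here.

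**Figure D2:**
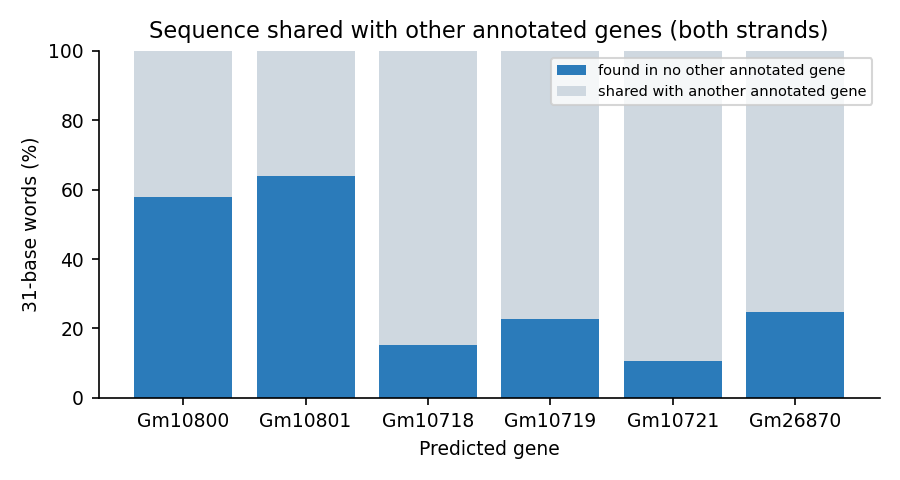
Percent of the distinct 31-base words of each gene (y axis) that occur in no other annotated gene (blue) or in at least 1 other (grey), with both strands considered. The 2 genes of chromosome 2 keep 58.0% and 63.8% unique words, whereas the genes of chromosome 9 keep 10.7% to 24.8%.

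Total counts per library were 11522987 to 15501019, so that 3 counts, the limit that a count of 0 allows, corresponded to 0.179 to 0.278 CPM, the count divided by library size and scaled to a common depth. These limits and the intervals of counts cover counting error only. No library was set aside. TMM factors, which scale libraries to each other, were 0.844 to 0.991 in controls, 0.962 to 1.03 at 2wk and 1.04 to 1.13 at 6wk (each pair of groups adjusted P = 0.00974, exact permutation test, two-sided), and the percent of counts on 13 mitochondrially encoded genes was 19.8 to 25.0 in controls, 17.8 to 20.6 at 2wk and 16.5 to 20.1 at 6wk. All 6 cardiomyocyte markers were present, summing to 23450 to 44560 CPM over the 18 mice. At 6wk, where 13.5% of all genes were called higher than in controls and 11.5% lower, 6 of these 6 were called lower, 4 of 4 markers of dividing cells higher, and of 5 macrophage markers 4 higher and 1 lower. Endothelial markers had 2 higher and 1 lower of 4, fibroblast markers 1 lower of 5, T cell markers 1 higher of 3 tested, B cell markers 1 higher of 2 tested and red cell markers 1 lower of 3 tested, and atrial, brown fat and skeletal muscle markers had none called. At 2wk, 3.09% of all genes were called higher than in controls and 1.93% lower. The only calls in these lists at 2wk were 1 higher and 1 lower endothelial marker and 1 lower fibroblast marker. The atrial sum ran from 0.661 to 583 CPM over all mice. Whether any of this bears on the repeat-like rows was not tested, and in bulk tissue fewer cells of a type cannot be told apart from less RNA per cell.

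Gm10800 was near the detection limit in control hearts and among the abundant rows in irradiated hearts. Controls held 4, 5.5 and 7 estimated counts (lowest, median and highest of 6 mice), mice at 2wk 359, 553 and 633, and mice at 6wk 442, 501.5 and 1056.9. No irradiated mouse came near the control range. Normalized levels were 0.438 ± 0.128 CPM in controls, 37.3 ± 9.44 CPM at 2wk and 43.6 ± 15.0 CPM at 6wk (SD, n = 6 each). Per transcript length, 22.5% of the 15054 genes tested had a lower mean TPM than Gm10800 in controls, against 96.3% at 2wk and 96.8% at 6wk. The log2 fold change was 6.42 (SE 0.307) at 2wk, which is 85.4-fold, and 6.64 (SE 0.306) at 6wk, both against the same 6 control mice. These differences chose the gene, so they are given as a description with no test.

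**Figure D3:**
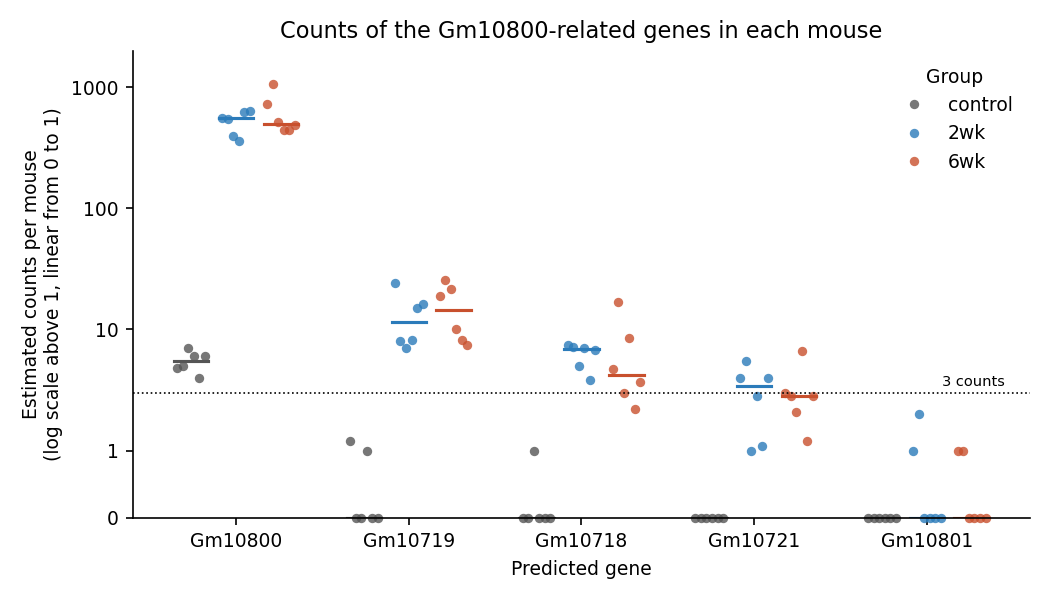
Estimated counts (y axis, logarithmic above 1 and linear from 0 to 1) of the 5 Gm10800-related genes with a row used here, with 1 point per mouse, a bar at the median of 6 mice and a dotted line at 3 counts. Gm10800 lies at 4 to 7 counts in controls and at 359 to 1056.9 in irradiated mice, and the other genes lie at 0 to 1.2 counts in controls.

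The rows on chromosome 9 differed in the same direction at far lower counts. Ratios of summed counts below are not the fitted folds given above for Gm10800. They are a description with no test, since the same comparisons chose Gm10800 and these rows share its sequence. Their intervals cover counting error only and leave out the spread between mice. By summed counts, Gm10800 itself stood 96.5-fold above controls at 2wk and 125-fold at 6wk. Gm10719 had 0 to 1.2 counts in controls, with 4 of 6 mice at 0, and 7.0, 11.6 and 24.4 counts (lowest, median and highest) at 2wk and 7.5, 14.4 and 25.5 counts at 6wk. Its irradiated and control mice did not overlap. Summed over 6 mice and divided by the total counts of the libraries, the 79.0 counts at 2wk stood 36.4-fold above the 2.2 counts of controls (95% counting interval 10.7 to 337), and the 91.5 counts at 6wk stood 46.2-fold above them (13.6 to 424). Gm10718 was at 0 in 5 of 6 controls, with 1 count in the other mouse, and reached 3.8, 6.9 and 7.4 counts at 2wk and 2.2, 4.2 and 16.8 counts at 6wk. All 12 irradiated mice lay above every control, although 2 mice at 6wk stayed at or under 3 counts. Its sums of 37.0 and 38.8 counts against 1.0 count gave ratios of 37.5 (6.33 to 1522) and 43.2 (7.34 to 1757). The fitted log2 fold changes of Gm10718, 4.34 and 4.43, rest on that 1 control count, and became 5.62 and 5.72 without control replicate 3. Gm10721, the row with the least unique sequence, was at 0 in every control, at 1.0 to 5.5 counts at 2wk and at 1.2 to 6.6 counts at 6wk. Against 3 counts over the control group, its sums of 18.4 and 18.5 counts were 6.23-fold and 6.87-fold higher. These 2 values leave out the counting error of the sums themselves, so they are not lower bounds.

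Gm10801, the neighbour of Gm10800 with the largest share of unique words, stayed at the detection limit in all groups. It was at 0 in 6 of 6 controls, in 4 of 6 mice at 2wk and in 4 of 6 mice at 6wk, and the highest mouse had 2.0 counts. The sums were 3.0 counts at 2wk and 2.0 counts at 6wk, which are at or under the limit of 3 counts, so no fold is given and a difference was not detectable at this depth. Of the 5 genes with a row, 4 (all but Gm10801) had irradiated mice above every control in both comparisons, where 1.96% (2wk) and 5.8% (6wk) of all genes tested did. The same comparisons chose Gm10800, and nothing is read from that count. Gm10800, Gm10719 and Gm10718 passed the filter on low counts, the latter pair through the irradiated groups, and Gm10721 and Gm10801 did not.

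Per length, the order of levels was the same in all 12 irradiated mice. Mean TPM was 119 (Gm10800), 3.08 (Gm10719), 1.44 (Gm10718), 0.743 (Gm10721) and 0.181 (Gm10801) at 2wk, and 153, 3.88, 1.62, 0.794 and 0.119 at 6wk. Gm10800 stood 38.7-fold and 39.5-fold above Gm10719, with ranges that did not overlap. Each following neighbour was higher than the next in 6 of 6 mice of each group, while the ranges of neighbours over mice overlapped. The level of Gm10719 was 2.14 and 2.39 times that of Gm10718, which was 1.94 and 2.04 times that of Gm10721. Gm10721 held at most 6.6 counts in a mouse and Gm10801 at most 2.0. Below Gm10800 the order rests on estimated counts of rows that share sequence, and whether read assignment set it was not tested.

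A further 7 rows shared words with these genes and are not in the list. Gm10717, Gm11168, Gm10720, Gm17535, Gm10722 and Gm10715 lie on chromosome 9 among the listed genes, and Gm21738 lies at chr14:19415857-19418930. None passed the filter, and all 7 were at 0 in all 6 controls. Gm10717 had the highest sum at each time, 15.0 counts at 2wk and 19.1 at 6wk. It was followed by Gm10715 (6.9 counts) and Gm11168 (5.0 counts) at 2wk, and by Gm21738 (13.1 counts) at 6wk. Gm17535 was at 0 in every mouse. Of the 11 relatives, which are the 12 rows with shared words apart from Gm10800, 2 had any count in a control and 10 had one in an irradiated mouse. Summed over mice, the relatives gave 3.2 counts in controls, 170.1 at 2wk and 194.1 at 6wk.

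Gm10800 took most of what fell on the 12 rows. It held 92.8% to 96.8% of their counts in single mice at 2wk and 93.8% to 96.6% at 6wk, while Gm10800 itself ran from 23.5 to 73.4 CPM over these 12 mice. Controls held 4 to 8 counts on the 12 rows per mouse, too few for a share. Mice with more Gm10800 tended to hold more of the relatives. Between log2 CPM of Gm10800 and summed CPM of the 11 relatives, Pearson's r was 0.854 and Spearman's rho 0.72 over 12 mice. Within 2wk r was 0.855, and within 6wk it was 0.866. The value at 6wk includes replicate 2, which was highest in both, at 73.36 and 4.858 CPM. The other mice at 6wk had 32.84 to 43.38 and 1.207 to 2.555 CPM. An r without that replicate was not computed. The rows share sequence, libraries and scaling, so these relations are a description and have no P.

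**Figure D4:**
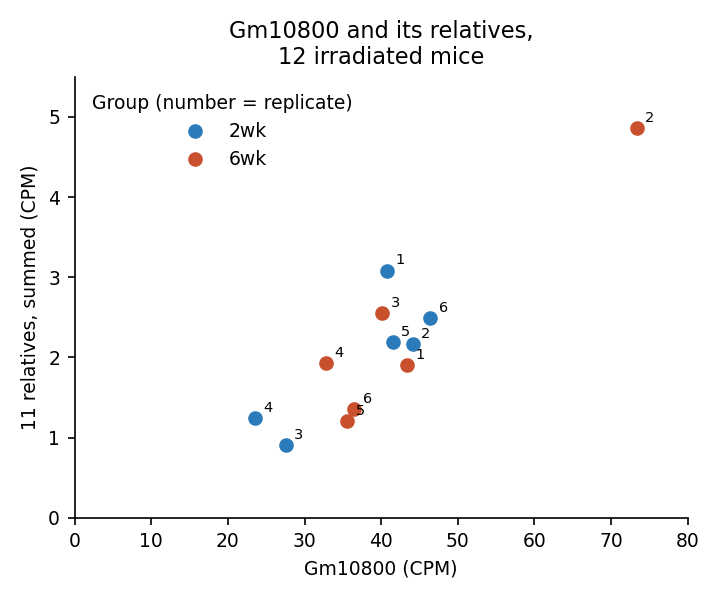
Summed CPM of the 11 relatives (y axis) against CPM of Gm10800 (x axis) in the 12 irradiated mice, with the replicate number beside each point (2wk blue, 6wk red). Replicate 2 of 6wk is highest on both axes, at 73.4 and 4.86 CPM.

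From 2 to 6 weeks the level of Gm10800 did not change beyond the spread between mice. The log2 fold change was 0.23 (SE 0.185), with a 95% interval of −0.16 to 0.62, which is 0.895-fold to 1.53-fold (adjusted P = 0.521, edgeR's quasi-likelihood test with Benjamini-Hochberg adjustment over 15054 genes). The 2 groups overlapped, since 5 of the 6 mice at 6wk, at 32.8 to 43.4 CPM, lay inside the range of 23.5 to 46.4 CPM at 2wk. Replicate 2 of 6wk was the exception at 73.4 CPM. Without that mouse the mean at 6wk was 37.7 ± 4.12 CPM (SD, n = 5) and the log2 fold change from 2wk was 0.02 (adjusted P = 0.966, edgeR). Gm10719 gave a log2 fold change of 0.25 (95% interval −0.45 to 0.95, adjusted P = 0.729) and Gm10718 one of 0.09 (−0.83 to 1.01, adjusted P = 0.941). None of the 3 was called, where 5.33% of all genes tested were called in either direction, and none had groups apart, where 2.27% of all genes had every mouse at 6wk above every mouse at 2wk. The intervals of Gm10719 and Gm10718 leave room for changes of 1.94-fold and 2.01-fold.

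The coefficient of variation of Gm10800 between mice was 25.3% at 2wk and 34.4% at 6wk, where counting alone gives 4.39% and 4.04%. The spread of other rows at this level was not compared. Without replicate 2, the value at 6wk was 10.9%. In controls it was 29.3%, and counting alone gives 42.8%, so the depth did not show differences between control mice. Over the 12 irradiated mice, log2 CPM of Gm10800 was set against 3 measures of the libraries. With total counts, Pearson's r was −0.198 (permutation P = 0.547, adjusted over 3 relations P = 0.82) and Spearman's rho 0.0 (permutation P = 1.0). The TMM factor gave r = 0.248 (permutation P = 0.443, adjusted P = 0.82) and rho = −0.077 (permutation P = 0.817, adjusted P = 1.0). The mitochondrial percent gave r = −0.049 (permutation P = 0.885, adjusted P = 0.885) and rho = 0.21 (permutation P = 0.517, adjusted P = 1.0). Without the 2 libraries farthest from the median of each measure, r was 0.054, 0.229 and −0.078. Within 2wk r was −0.566, −0.524 and 0.61, and within 6wk 0.28, 0.425 and −0.248, so the signs differed between the groups for all 3 measures.

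Other predicted genes were counted beside these. Of 646 tested rows whose symbol is Gm and a number, among them Gm10800, Gm10719 and Gm10718, 9 (1.39%) were called higher at 2wk and 34 (5.26%) at 6wk, against 3.16% and 13.8% of the other 14408 rows. The comparison of the shares was not tested, and count levels of these sets of rows were not compared. Gm10800 is among the rows called higher because the same comparisons chose it. Over all 15054 genes, 3.09% were called higher at 2wk and 13.5% at 6wk. Scaling by library size alone moved the middle log2 fold change over all genes to 0.15 at 2wk and 0.24 at 6wk and called 1707 of 1789 genes higher at 2wk and 5494 of 5820 at 6wk, in place of 465 of 755 and 2029 of 3760. Under that scaling the log2 fold change of Gm10800 was 6.56 at 2wk and 6.91 at 6wk.

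The rows whose levels over the 18 mice were most like that of Gm10800 were Phlda3 (r = 0.974), Eda2r (0.961), Rnf169 (0.957), Sesn2 (0.956) and Bax (0.955), by Pearson's r of log2 CPM. The 95th percentile of r over the other 15051 genes was 0.693, and the measure includes the step between control and irradiated mice. Phlda3, Eda2r, Sesn2 and Bax are known targets of p53, and Rnf169 is a ubiquitin ligase that binds chromatin at DNA breaks. Phlda3 went from 4.56 ± 0.863 CPM in controls to 19.7 ± 2.94 at 2wk and 21.1 ± 3.26 at 6wk (SD, n = 6), and Bax from 8.90 ± 1.64 to 21.1 ± 2.26 and 21.9 ± 1.48. 

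Genes linked to pericentromeric heterochromatin were examined beside the repeat-like rows, as a list of 36 that were all tested. The list was not limited to genes that build this chromatin, and holds Top2a, Zfp57, Kdm4a and Kdm4b among others. At 2wk, 5 of 36 (13.9%) rose and 0 fell, where 3.09% of all genes were called higher and 1.93% lower (5.02% in all). At 6wk, 11 of 36 (30.6%) rose and 0 fell, against 13.5% and 11.5% of all genes (25% in all). The median log2 fold change of the list was 0.07 at 2wk and 0.11 at 6wk, and that of all genes 0.0 and −0.02, so the calls came from part of the list. Both comparisons used the same control mice.

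Factors of maintenance DNA methylation were among the calls. Uhrf1, which brings the methyltransferase Dnmt1 to newly copied DNA, had 4.06 ± 2.24 CPM in controls, 9.32 ± 1.17 at 2wk and 13.9 ± 3.59 at 6wk (SD, n = 6), with log2 fold changes of 1.17 (SE 0.265, adjusted P = 0.0166) and 1.75 (SE 0.259, adjusted P = 9.47e-05, edgeR). Dnmt1 itself rose by 0.34 (adjusted P = 0.0431) and 0.46 (adjusted P = 0.00157) on the log2 scale. Hells, a remodeller that DNA methylation of satellite repeats needs, had 1.82 ± 0.891, 3.32 ± 0.862 and 5.12 ± 0.954 CPM, and was called at 6wk (log2 fold change 1.47, adjusted P = 0.000271) and not at 2wk (0.84, adjusted P = 0.0657). Zfp57, a zinc finger protein that guards methylation at imprinted genes, was called at both times (0.98 and 1.07, adjusted P = 0.00476 and 0.000273) with no overlap between irradiated and control mice. Dnmt3a and Dnmt3b, which set new methylation, were not called at either time, with log2 fold changes of −0.02 and 0.02 at 2wk and −0.12 and 0.28 at 6wk.

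Among the histone methyltransferases, Setdb1 had log2 fold changes of 0.62 (adjusted P = 0.0373) at 2wk and 0.59 (adjusted P = 0.013) at 6wk, and Kmt5c 0.41 (adjusted P = 0.0358) and 0.42 (adjusted P = 0.0079), and both were called at each time. Suv39h1 and Suv39h2, the enzymes best known for methylating histones at these repeats, were not called (0.00 and 0.06 at 2wk, 0.28 and 0.05 at 6wk). The heterochromatin protein 1 genes Cbx1, Cbx3 and Cbx5 lay between −0.09 and 0.05 and were not called, and Trim28, the corepressor that recruits Setdb1, was at 0.07 at both times with adjusted P of 0.461 and 0.341. Top2a, the topoisomerase of dividing cells, had log2 fold changes of 0.86 (adjusted P = 0.172) and 1.55 (adjusted P = 0.00292). From 2wk to 6wk only Daxx, a histone chaperone and partner of Atrx, was called of the 36 (2.78%; 3.31% of all genes were called higher), at 0.37 on the log2 scale (SE 0.104, adjusted P = 0.0445). Leaving out 11 of the 18 mice in turn ended that call.

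Several of these genes are also used by dividing cells, and Top2a stands in both lists. The summed level of the 4 markers of dividing cells was 5.37 to 52.0 CPM in controls, 31.3 to 45.3 at 2wk and 39.2 to 83.1 at 6wk, with 4 of 4 called higher at 6wk, 0 of 4 called at 2wk and none at 0. Their part in the calls was not tested. At 2wk, Uhrf1 and Zfp57 were called in 18 of 18 fits that left out 1 mouse, Setdb1 and Kmt5c in 11 and Dnmt1 in 6. At 6wk, 9 of the 11 genes were called in 18 of 18 such fits, Hmga1 in 14 and Kdm2a in 12.

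**Figure D5:**
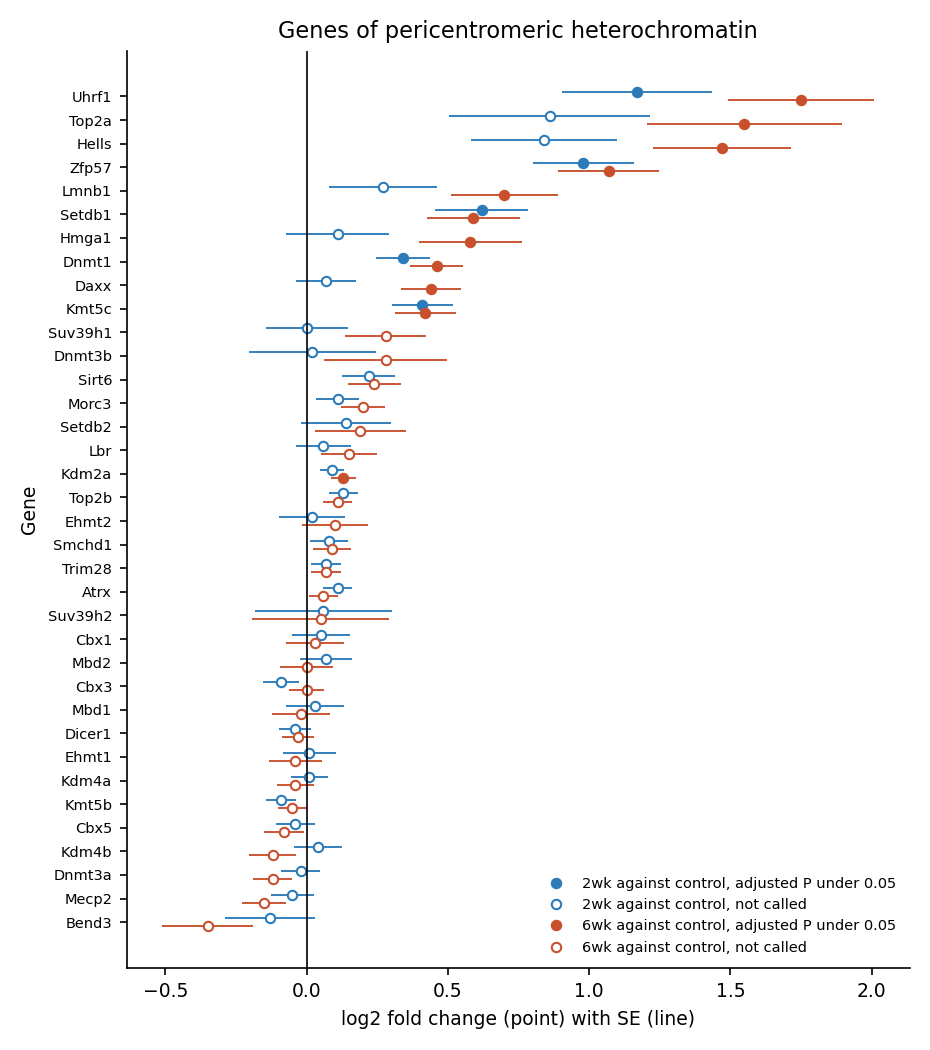
Log2 fold change against control (x axis, point, with a line of 1 SE to each side) of 36 genes linked to pericentromeric heterochromatin (y axis) at 2wk (blue) and 6wk (red), filled where called at an adjusted P under 0.05. The 5 and 11 called genes all lie above 0, and most of the list lies close to 0.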

How the data were processed

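Total RNA of the septum was sequenced by the authors, aligned to GRCm38 with STAR, quantified with Salmon 1.0 per the labels and summed to genes with tximport. The deposited estimated counts were not normalized between mice and need not be whole. The deposited TPM values, scaled for length and depth within a mouse, served for levels between genes and for alternatives. How reads of repeats were assigned and whether strand was used is not given in the sources used here.

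Rounded counts were fitted with edgeR 4.0.16 under R 4.3.3 (TMM scaling, a filter of 0.23 CPM or more in 6 mice or more, quasi-likelihood fit of the 3 groups over 18 mice, two-sided F test, Benjamini-Hochberg adjustment within each comparison, call at an adjusted P under 0.05). CPM includes the TMM factors, and log2 CPM has a prior count of 2. The SE is the absolute log2 fold change divided by the square root of F. DESeq2 1.42.0 and limma 3.58.1 served for alternatives. The fit was tested on simulated counts. Single values were compared with exact permutation tests over 6 mice against 6 (smallest P 0.00217), adjusted over 9 tests, and correlations with 100000 permutations.

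Sequences, words of 31 bases and coordinates came from GENCODE M21 transcripts on GRCm38, which need not be the annotation release of the authors. Symbols were found for 29301 rows. Members, lists and tests were chosen with earlier results of these data known. Named were all 6 genes, rows sharing words with them, up to 5 called genes of the heterochromatin list per comparison by adjusted P, and the 5 genes most like Gm10800 by each measure. Genes of that list named without a call, Hmga1 and Kdm2a were named after their values were seen. Genomic copies of the words and ribosomal RNA rows were not analysed here.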

Additional observations from a re-analysis of the deposited data

Results flagged for a closer look

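Among 63 sets of 6 values, 6 held a mouse whose gap to its neighbour was a large part of the range of the group (above Dixon's 95% critical value). Chance gives about 1 in 20 only for independent normal values. Several sets are rows at 0 or a few counts, or related rows, so 6 of 63 is not set against that rate. Replicate 2 of 6wk had 73.36 CPM of Gm10800, and the other 5 mice had 32.84 to 43.38. The same mouse had 4.858 CPM over the 11 relatives, against 1.207 to 2.555 in the others. Replicate 4 of 6wk was highest in Gm10721 with 0.5189 CPM (others 0.08044 to 0.2257), which is 6.6 counts. Replicate 3 of the controls was the control mouse with a count of Gm10718, at 0.09254 CPM, which is 1.0 count. Replicate 5 of 2wk was lowest in Hmga1 with 18.04 CPM (others 34.17 to 38.25), and replicate 2 of the controls was lowest in Kdm2a with 71.74 CPM (others 80.07 to 85.06).

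The test of the difference between the 2 times after irradiation picked out Daxx in the heterochromatin list, with a log2 fold change of 0.37 from 2wk to 6wk (adjusted P = 0.0445, edgeR), against 0.07 from control to 2wk and 0.44 from control to 6wk.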

How the results depend on the processing

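Gm10800 kept its direction against controls under all 27 alternatives, with log2 fold changes of 5.82 to 6.64 at 2wk and 6.15 to 6.98 at 6wk, and stayed uncalled from 2wk to 6wk (0.02 to 0.35, adjusted P 0.254 to 0.966). Gm10718 changed sign from 2wk to 6wk under voom with quality weights (−0.2), log2(TPM + 1) (−0.01), log2(TPM + 0.1) (−0.09), without replicate 5 of 2wk (−0.02) and without replicate 2 of 6wk (−0.45), and was not called under any (−0.45 to 0.25 without 1 mouse). Against controls, Gm10718 (4.34 and 4.43 at 2wk and 6wk) gave 3.31 and 3.11 under voom, 1.22 and 1.21 with log2(TPM + 1), 3.61 and 3.52 with log2(TPM + 0.1), and 4.14 to 5.62 and 3.89 to 5.72 without 1 mouse, and Gm10719 (4.74 and 4.99) gave 4.06 and 4.38 under voom, 1.84 and 2.09 with log2(TPM + 1), and 4.46 to 5.22 and 4.78 to 5.47 without 1 mouse. The summed CPM of the 5 genes gave log2 ratios of 6.36, 6.58 and 0.22 (2wk and 6wk against control, 6wk against 2wk), and 7.06 at 6wk with summed TPM. Leaving out 1 mouse gave 6.25 to 6.53, 6.36 to 6.75 and 0.01 to 0.29.

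The counts of genes called depended on the setting. At 2wk they were 755 in the reported fit, 1789 with library size only, 1216 with DESeq2, 2813 and 3026 with log2(TPM + 1) and log2(TPM + 0.1), 136 where the log2 change also had to exceed 1 in size, and 453 to 882 without 1 mouse (453 and 456 without control replicates 3 and 6, 466 and 474 without 2wk replicates 5 and 6). At 6wk they were 3760, then 5820, 7472 and 7463 with library size and the TPM scales, 896 with the fold limit, and 3089 to 3927 without 1 mouse. From 2wk to 6wk they were 802, 172 with the fold limit and 323 to 995 without 1 mouse (477, 353, 385 and 450 without 2wk replicates 1, 2, 4 and 6, and 418, 391 and 323 without 6wk replicates 1, 3 and 6). The heterochromatin list at 2wk gave 5 calls, 12 with library size only, 16 and 17 with the TPM scales, and 2 to 7 without 1 mouse (3 without control replicates 3 and 6 and 2wk replicates 1, 2, 3 and 6, and 2 without control replicates 4 and 5 and 2wk replicates 4 and 5). At 6wk it gave 11, with 27, 29 and 29 under those settings and 10 to 12 without 1 mouse. These calls were not all higher in every fit: without 6wk replicate 2, 11 of 12 were higher, and without 6wk replicate 4, 10 of 11. From 2wk to 6wk its 1 call became 0 under voom, no filter and both TPM scales, and 0 to 1 without 1 mouse (0 without control replicates 2 and 5, all 2wk replicates but 5, and 6wk replicates 1, 3, 4 and 6). The cause of these shifts was not tested.

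Replicate numbers did not pair the mice: over 18 same-numbered pairs, deviations from group means correlated at −0.083 to 0.106, and 3 of 18 mice correlated best with their own number. With the replicate block, 586, 3549 and 542 genes were called, the heterochromatin list had 3, 11 and 0 calls, and Gm10800 had log2 fold changes of 6.4, 6.62 and 0.21. Rows at a few counts are limited by depth, and a change in Gm10801 could not be seen.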

Other observations

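With group means removed, the rows that varied most like Gm10800 over the 18 mice were Arl3 (r = 0.836), Srrd (0.829), H2afy2 (0.826), Ppp1r1a (0.788) and Fam186a (0.768), where the 95th percentile over 15051 genes was 0.424. These rows share libraries and scaling with Gm10800, and the values carry no P. In the control mice Gm10800 held 4 to 7 counts, and its spread there did not exceed counting error. Mean levels of H2afy2, a histone variant of silent chromatin, were 7.72 ± 1.53 CPM in controls, 8.30 ± 0.940 at 2wk and 7.76 ± 1.40 at 6wk (SD, n = 6). Fam186a had 3.14 ± 0.748, 2.05 ± 0.512 and 2.04 ± 0.483 CPM.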
